A study of Mus musculus with 6 samples.

Results

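The phagocyte NADPH oxidase and enzymes of myeloid granules are described here through 9 genes. They were chosen by their symbols from the 18946 genes that the study's 2 tables list. The 5 oxidase genes are Cybb, Cyba, Ncf1, Ncf4 and Rac2, and the 4 granule genes are Mpo, Elane, Prtn3 and Ctsg. RNA came from BaF3 cells, a mouse line grown in medium with 10% serum and 2 ng/mL interleukin-3, transfected with a plasmid by nucleofection and sorted 24 h later. The CTdel group received the plasmid pmax-Clover-CTdel, taken here to be the mutated ICN plasmid that the design text mentions since the labels do not spell out CTdel, the ICN group received pmax-Clover-ICN, and the con group received pmax-Clover alone. ICN is the usual name for the intracellular part of the receptor Notch1, and Clover is a green fluorescent protein that all 3 groups carry. Each group had 2 libraries, numbered 1 and 2, of this 1 cell line. Whether the replicates were cultured separately is not given in the labels, and the p-values cover the spread among these 6 libraries, which may be technical.

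The oxidase makes superoxide at the membrane of neutrophils and macrophages. Its core is a membrane pair, the electron-carrying subunit made from Cybb and its partner made from Cyba. On stimulation cytosolic subunits, among them those made from Ncf1 and Ncf4, join that pair together with the small GTPase Rac2, and loss of Cybb, Cyba or Ncf1 causes chronic granulomatous disease in humans. Myeloperoxidase, neutrophil elastase, proteinase 3 and cathepsin G, made from Mpo, Elane, Prtn3 and Ctsg, are packed into the azurophil granules of neutrophil precursors. The transcription factor PU.1, made from Spi1, is a known activator of many genes of both groups.

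The labels call the line pro-B, and most genes of that stage were at or near 0. Of 13 pro-B markers, 2 (Cd79a and Cd79b) reached 1 FPKM in any library, while Pax5 and Ebf1, which define the lineage, stayed at or below 0.25 FPKM where listed. FPKM are fragments per kilobase of transcript scaled to the number of mapped fragments, so levels of different genes can be set side by side. The summed FPKM of that list were 9.39 and 18.7 in CTdel replicates 1 and 2, 8.61 and 7.5 in ICN and 3.94 and 5.75 in con. Of 9 neutrophil markers 5 reached 1 FPKM, with sums of 21.7 and 28.5 in CTdel, 51.5 and 47.1 in ICN and 39.7 and 95.5 in con, and the defining marker Ly6g stayed at or below 0.3. Of 9 monocyte and macrophage markers 5 reached 1 FPKM, with sums of 84.0 and 66.3 in CTdel, 79.9 and 33.7 in ICN and 103 and 49.4 in con, most of it from Adgre1, and Cd14 stayed at or below 0.03 where listed. These sums hide markers that went opposite ways. Csf1r had 7.96 and 1.72 FPKM in CTdel, 3.34 and 0.1 in ICN and 0.05 and 0.01 in con. Fcgr1 was highest in con, with 3.09 and 2.57 in CTdel, 3.21 and 3.85 in ICN and 19.96 and 5.61 in con. Erythroid markers summed to 94.7 and 226 in CTdel, 167 and 386 in ICN and 135 and 634 in con, with 3 of 4 above 1 FPKM, and mast cell and basophil markers to 5.11 and 1.88 in CTdel, 11.2 and 3.11 in ICN and 29.5 and 7.06 in con, with 2 of 8 above it. Eosinophil markers (1 of 5 above 1 FPKM), T cell markers (0 of 5) and fibroblast markers (0 of 4) summed to between 0.44 and 2.37 in every library. Total FPKM ran from 489693 to 507894 per library, and the number of reads behind them is unknown.

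The stretches of genome just before the start of these genes are shown because the members split there by group in a short motif. RefSeq's promoter table for GRCm38.p6 held 7 of the 9 members, Cybb, Cyba, Ncf1, Mpo, Elane, Prtn3 and Ctsg. The 250 bases before the start that this table gives for each gene were searched on both strands for GAGGAA, a core of the PU.1 motif, for TTGCNNAA, a C/EBP motif, and for TGGGAA, a core of the motif of RBPJ, the DNA-binding partner of ICN. These 3 motifs do not contain one another. For Cybb the table's start lies inside the span RefSeq gives for the whole gene, so the stretch searched (chrX:9469325-9469574, minus strand) is within that span, and for Ncf1 it overlaps the end of the span by a few bases. GAGGAA was found before all 4 granule genes and before none of the 3 oxidase genes in the table, which lacks Ncf4 and Rac2. The shorter GGAA inside it also stands, on either strand, before Cybb, Cyba and Ncf1. The split thus holds for the longer string alone. Of all 32851 RefSeq promoters, 23.3% hold it in the same length. A match is a description of letters and not evidence of a bound site. The promoters of Prtn3 (chr10:79879417-79879666, plus strand) and Elane (chr10:79886062-79886311, plus strand), neighbouring genes, and of Cyba (chr8:122432941-122433190, minus strand) and Ncf1 (chr5:134229626-134229875, minus strand) follow in lower case, 5′ to 3′ along the gene, with GAGGAA in capitals.
Prtn3: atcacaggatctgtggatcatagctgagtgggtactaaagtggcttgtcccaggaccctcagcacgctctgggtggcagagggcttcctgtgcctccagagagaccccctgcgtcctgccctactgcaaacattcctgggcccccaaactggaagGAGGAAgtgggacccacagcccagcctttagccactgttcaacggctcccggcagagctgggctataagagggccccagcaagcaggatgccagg
Elane: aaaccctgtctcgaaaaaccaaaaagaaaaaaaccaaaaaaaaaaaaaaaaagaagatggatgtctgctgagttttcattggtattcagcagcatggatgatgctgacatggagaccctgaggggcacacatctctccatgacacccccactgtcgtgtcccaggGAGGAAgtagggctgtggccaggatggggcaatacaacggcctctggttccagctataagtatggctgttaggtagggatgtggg
Cyba: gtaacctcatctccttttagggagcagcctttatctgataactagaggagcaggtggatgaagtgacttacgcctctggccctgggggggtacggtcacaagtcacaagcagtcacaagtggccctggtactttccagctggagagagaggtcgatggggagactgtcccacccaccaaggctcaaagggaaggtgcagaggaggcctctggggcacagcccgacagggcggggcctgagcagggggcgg
Ncf1: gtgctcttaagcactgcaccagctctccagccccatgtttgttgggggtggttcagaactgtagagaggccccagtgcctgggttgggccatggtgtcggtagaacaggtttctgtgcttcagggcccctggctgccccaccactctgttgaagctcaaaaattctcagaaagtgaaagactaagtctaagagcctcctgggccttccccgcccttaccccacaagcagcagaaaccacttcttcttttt

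In Prtn3 the match lay at bases -95 to -90 from the start and in Elane at -85 to -80, and in the 30 bases around each the motif was followed by gt. Mpo held 2 matches, at -247 to -242 and -224 to -219, and Ctsg 1 at -216 to -211. The 30 bases around the second Mpo match (chr11:87793548-87793577, plus strand) and around the Ctsg match (chr14:56102773-56102802, minus strand) allow the 4 granule genes to be compared.
Mpo: tgtggagagagaGAGGAAgttgcctttgtc
Ctsg: ctcccagaaggaGAGGAAgaaaaggaagta

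TGGGAA was found once, before Cybb at bases -77 to -72, and 21.6% of all promoters hold it. TTGCNNAA, held by 9.56% of all promoters, was in none of the 7.

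**Figure D1:**
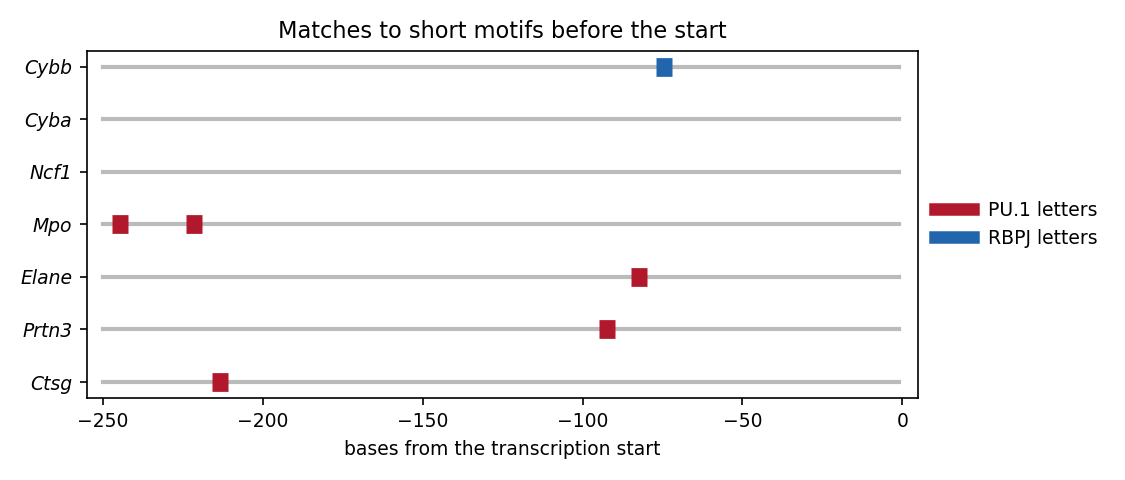
Position of motif matches in the 250 bases before the start of 7 member genes, in bases from the start; grey lines are the searched stretches, red blocks GAGGAA and the blue block TGGGAA. Red blocks stand on the 4 granule genes (Mpo has 2), and none on Cybb, Cyba or Ncf1.

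The membrane partner Cyba was abundant in every library while the electron-carrying Cybb was barely present. Cyba (Gene ID 13057, chromosome 8, 122424771 to 122432940 in GRCm38.p6) had 326 and 278 FPKM in CTdel replicates 1 and 2, 284 and 205 in ICN and 162 and 173 in con. The CTdel and ICN libraries all lay above both con libraries, and the ranges of CTdel and ICN overlapped. Cyba stood above 97.6% to 98.9% of the 16799 genes that both tables list. Cybb (Gene ID 13058, chromosome X, 9435252 to 9487766) had 0.76 and 0.25 FPKM in CTdel, 0.41 and 0.08 in ICN and 0.06 and 0.11 in con. CTdel lay above con without overlap, ICN overlapped both groups, and the highest value, in CTdel replicate 1, stood above 34.5% of the genes. Among 499 genes with a single transcript within 5% of the length of Cybb, the most frequent value above 0 was 0.01 or 0.02 FPKM in each library. All values of Cybb were above that most frequent low value.

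Of the 9 members, 5 entered the test, Cyba, Ncf1, Ncf4, Rac2 and Prtn3, since it asked for at least 1 FPKM in at least 2 libraries. The test was limma's on log2(FPKM + 1), with the 2 tables as a term and Benjamini-Hochberg adjustment over 11050 genes, and a gene was called at an adjusted p under 0.05. Changes on this scale understate those of low genes. With CTdel against con 0 of the 5 members were called, where 1.41% of all genes tested were (1.3% higher and 0.109% lower). At an unadjusted p under 0.05 the count was 3 of 5, where 11.8% of all genes tested passed in CTdel against con, 15% in ICN against con, 7.13% in CTdel against ICN and 15.4% with both forms against con. With ICN against con 0 were called (0.0362% of all genes; 0 members at an unadjusted p under 0.05), with CTdel against ICN 0 (0.0181%; 0 members), and with both forms against con 0 (1.11%, made of 1.01% higher and 0.0995% lower; 3 members). In bulk RNA, fewer cells with a transcript and less of it per cell cannot be told apart.

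Cyba averaged 302 ± 34.3 FPKM in CTdel, 244 ± 55.3 in ICN and 167 ± 7.67 in con (SD, n = 2 each). Its change in CTdel against con was 0.84 on the log2 scale, with a standard error of 0.22 and a 95% interval of 0.30 to 1.39 (limma adjusted p = 0.184). In ICN against con it was 0.53, with an interval of -0.02 to 1.07 (limma adjusted p = 0.341), and between CTdel and ICN 0.32, with an interval of -0.22 to 0.86. The smaller ICN change joined 0.80 in replicate 1 with 0.25 in replicate 2.

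The cytosolic subunits Ncf1 and Ncf4 stood in the same order as Cyba, CTdel above ICN above con, in each replicate. The share of all genes with this order was not computed. Ncf1 (Gene ID 17969, chromosome 5, 134220053 to 134229628), the organizer that brings the other cytosolic subunits to the membrane, had 33.5 and 36.6 FPKM in CTdel, 27.4 and 19.5 in ICN and 22.3 and 13.3 in con. CTdel lay above all other libraries, and ICN and con overlapped. The change in CTdel against con was 0.98 (standard error 0.26, 95% interval 0.34 to 1.62, limma adjusted p = 0.193), made of 0.57 in replicate 1 and 1.39 in replicate 2. Against ICN it was 0.58, with an interval of -0.07 to 1.22. Ncf4 (Gene ID 17972, chromosome 15, 78244164 to 78262582), a subunit that binds membrane phosphoinositides, had 81.7 and 66.8 FPKM in CTdel, 62.2 and 44.4 in ICN and 51.3 and 35.9 in con. CTdel again lay above all other libraries, and ICN and con overlapped. Its change in CTdel against con was 0.77 (standard error 0.20, 95% interval 0.28 to 1.26, limma adjusted p = 0.177), against ICN 0.48 with an interval of -0.00 to 0.97, and in ICN against con 0.29 with an interval of -0.20 to 0.77.

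Rac2 moved least of the 4 tested oxidase genes. Rac2 (Gene ID 19354, chromosome 15, 78559169 to 78572783), the GTPase that switches the assembled enzyme on in blood cells, had 110 and 110 FPKM in CTdel, 99.4 and 79.1 in ICN and 84.1 and 86.5 in con. Both CTdel values lay above the other 4, and the con values lay inside the ICN range. The change was 0.37 in CTdel against con (95% interval -0.15 to 0.88, limma adjusted p = 0.615) and 0.06 in ICN against con (interval -0.46 to 0.57, limma adjusted p = 0.910). In ICN replicates 1 and 2 the change of Rac2 was 0.24 and -0.13.

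Side by side, the 4 tested oxidase genes had CTdel values above con with no overlap, where 18.3% of all 11050 genes did so. For ICN above con the count was 1, Cyba, against 22.7% of all genes, and for CTdel above ICN it was 3, Ncf1, Ncf4 and Rac2, against 15.6%. For both forms above con it was 1, Cyba, against 12%. No tested member lay below its comparison group without overlap, where 23.5% of all genes did in CTdel against con, 19.6% in ICN against con, 25% in CTdel against ICN and 12.2% with both forms against con. The median change of the 4 in CTdel against con was 0.81, beside -0.06 over all genes tested, and in ICN against con 0.35, beside 0.00. CTdel and ICN share the same con libraries, so the changes of the forms are not separate measurements. When the CTdel and con libraries were fitted without ICN, the change of Cyba, Ncf1 and Ncf4 stayed the same and their adjusted p were 0.0280, 0.0396 and 0.0499, with 730 genes called in all. Leaving out either ICN library in effect repeats that fit, since the ICN library that is left adds no spread, so it is not a separate check. With 1 CTdel or con library left out none of the 4 was called, and the change in CTdel against con ran from 0.62 to 1.06 for Cyba, from 0.63 to 1.34 for Ncf1 and from 0.67 to 0.87 for Ncf4.

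**Figure D2:**
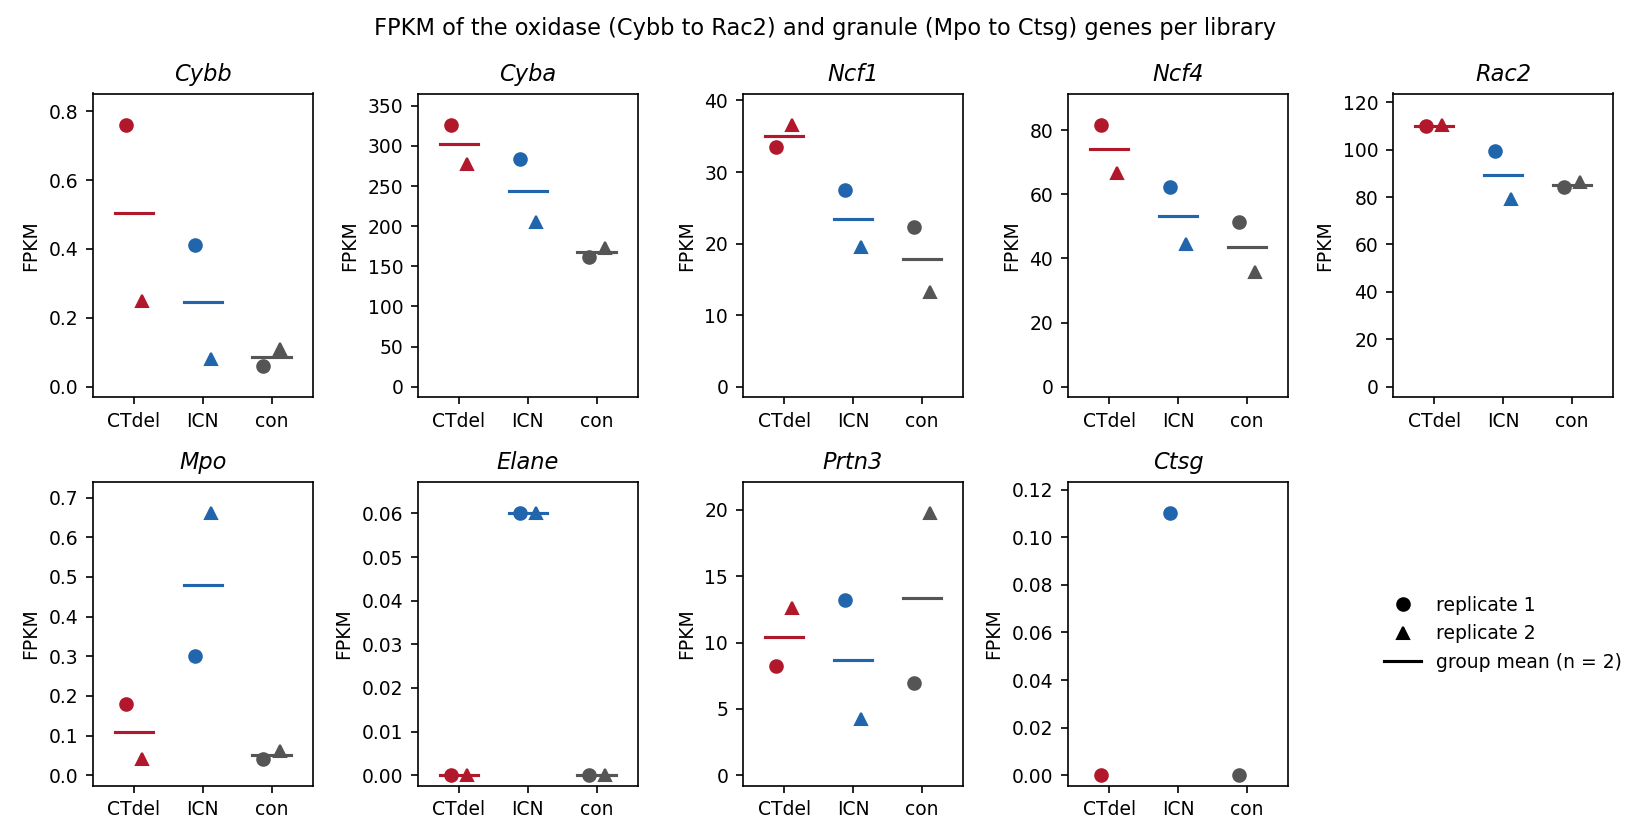
FPKM of each member gene (vertical axes, from 0, scaled per gene) in the CTdel, ICN and con libraries; circles are replicate 1, triangles replicate 2 and lines group means of 2 libraries. Cyba, Ncf1, Ncf4 and Rac2 lie higher in both CTdel libraries than in both con libraries, while Prtn3 differs as much within a group as between groups; Ctsg has values in replicate 1 alone.

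The granule genes were near 0 except for Prtn3. Prtn3 (Gene ID 19152, chromosome 10, 79879667 to 79883174) had 8.22 and 12.6 FPKM in CTdel, 13.2 and 4.2 in ICN and 6.95 and 19.7 in con. The 3 groups overlapped, with the highest value in con replicate 2 and the lowest in ICN replicate 2. Its change in CTdel against con was -0.20, with a 95% interval of -1.76 to 1.37 (limma adjusted p = 0.946), and in ICN against con -0.58, with an interval of -2.14 to 0.98 (limma adjusted p = 0.672). In ICN the replicates went opposite ways, by 0.84 and -1.995, and in CTdel by 0.21 and -0.60. Without ICN replicate 1 the change of Prtn3 in ICN against con was -1.79, and without ICN replicate 2 it was 0.63. Without ICN replicate 1 its change was 1.59 in CTdel against ICN and -0.99 with both forms against con. These fits hold 1 ICN library, so the direction rests on which one is used. Con replicate 2 also had the highest summed neutrophil and erythroid markers given above, and their part in the Prtn3 values was not tested.

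Elane (Gene ID 50701, chromosome 10, 79886312 to 79888216), whose gene starts past the end of Prtn3 on the same strand, was listed at 0 in both CTdel and both con libraries and at 0.06 FPKM in both ICN libraries. In both ICN libraries 0.06 was also the most frequent value above 0 among 328 genes of like length, so Elane stood at that most frequent low value. Mpo (Gene ID 17523, chromosome 11, 87793784 to 87804412) had 0.18 and 0.04 FPKM in CTdel, 0.3 and 0.66 in ICN and 0.04 and 0.06 in con. ICN lay above the other 4 libraries, and CTdel and con overlapped. The most frequent low value at the length of Mpo was 0.02 FPKM in each library, and the con values and the lower CTdel value stood closest to it. Fitted without the filter on low genes, the change of Mpo in ICN against con was 0.48 (limma adjusted p = 0.344) and that of Cybb in CTdel against con 0.45 (limma adjusted p = 0.519). Ctsg (Gene ID 13035, chromosome 14, 56099885 to 56102574) was listed in the table of replicate 1 alone, at 0 in CTdel, 0.11 in ICN and 0 in con, and has no value for replicate 2.

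By level in con, the order was Cyba, Rac2, Ncf4, Ncf1, Prtn3, Cybb, Mpo and Elane. The con values of neighbours in that order did not overlap, apart from Ncf1 and Prtn3, and Cybb and Mpo, whose values met at 0.06 FPKM. In CTdel Cyba, Rac2, Ncf4, Ncf1, Prtn3 and Cybb kept that order with no overlap between neighbours.

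**Figure D3:**
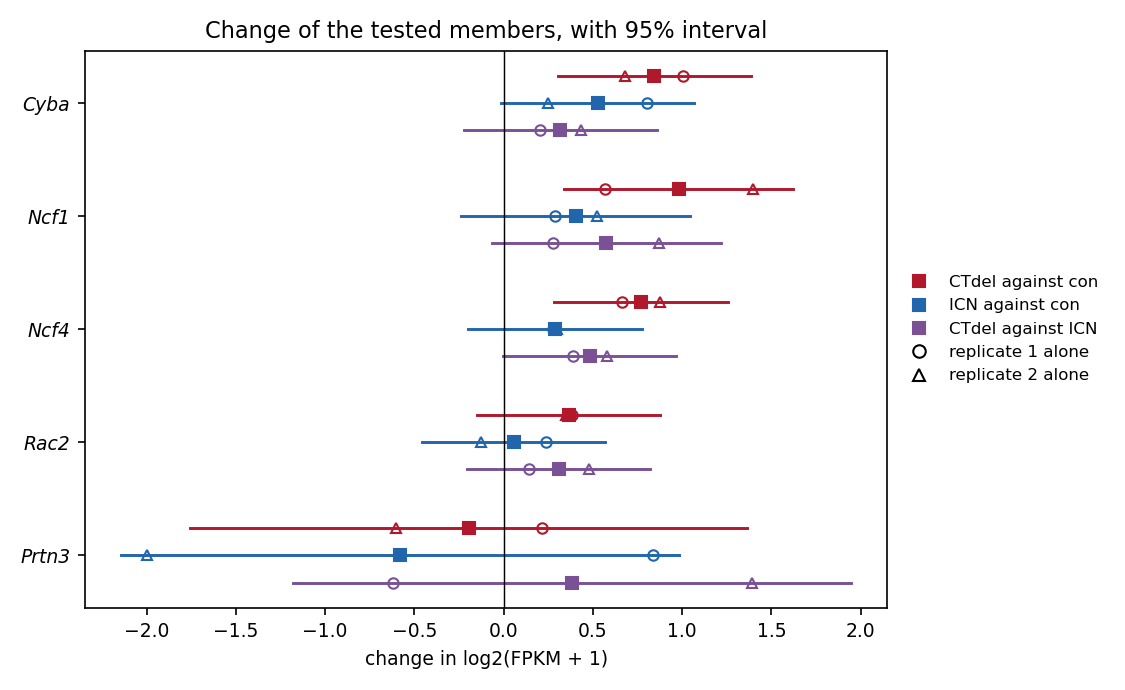
Change in log2(FPKM + 1) of the 5 tested members in CTdel against con (red), ICN against con (blue) and CTdel against ICN (purple); squares are limma's estimates, bars 95% intervals, open circles and triangles replicates 1 and 2 alone. The red intervals of Cyba, Ncf1 and Ncf4 lie above 0, and those of Prtn3 span 0 in all 3 comparisons.

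Among genes outside the 9, a list of 14 oxidase partners and regulators had 13 tested. In CTdel against con 1 rose, 0 were lower and 12 were not called, beside 1.3% of all genes called higher. At an unadjusted p under 0.05 there were 2 in CTdel against con, beside 11.8% of all genes. The gene that rose was Prex1, an exchange factor that loads Rac proteins with GTP. Prex1 had 23.5 and 37.4 FPKM in CTdel, 16.5 and 17.5 in ICN and 8.76 and 7.6 in con. Its 3 groups did not overlap. CTdel lay above con with no overlap in 18.3% of all genes tested, ICN above con in 22.7% and CTdel above ICN in 15.6%. The change of Prex1 in CTdel against con was 1.74 (limma adjusted p = 0.0458). Its call was lost without any 1 of the CTdel or con libraries (adjusted p from 0.0551 to 0.303), with rescaling to a common FPKM sum (0.0534) and with no filter (0.215). The median change of this list in CTdel was 0.074, beside -0.06 over all genes. In ICN 0 of the 13 were called, with a median of 0.0062 beside 0.0014 over all genes, and 2 had an unadjusted p under 0.05, beside 15% of all genes. Rac1, the GTPase related to Rac2, had 151 and 194 FPKM in CTdel, 150 and 155 in ICN and 136 and 147 in con (change in CTdel against con 0.27, limma adjusted p = 0.702), and Cybc1, a chaperone of the membrane pair, had 32.4 and 39.4 in CTdel, 29.4 and 28.8 in ICN and 24.6 and 27.8 in con. Prkcb, a kinase that acts on Ncf1, had 2.56 and 1.24 in CTdel, 4.81 and 0.43 in ICN and 8.75 and 2.37 in con (change in CTdel against con -1.02, limma adjusted p = 0.342), with a lower value than con in each replicate of both forms.

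The other oxidases of the family that were tested were low. Of 9 genes for other NADPH oxidases and their helpers, 2 were tested and 0 were called in any of the 4 comparisons. Nox1, a catalytic subunit known from the colon, had 1.35 and 0.46 FPKM in CTdel, 1.03 and 0.36 in ICN and 0.38 and 0.06 in con (change in CTdel against con 0.61, limma adjusted p = 0.450). Noxo1, its organizer, had 1.65 and 1.22 in CTdel, 1.31 and 1.05 in ICN and 0.95 and 0.66 in con (change 0.43, limma adjusted p = 0.609).

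Genes that process or hold granule proteins did not pass in the fit of all 6 libraries. Of 12 genes for granule biogenesis and protease partners 10 were tested, with 0 called in the 4 comparisons. At an unadjusted p under 0.05 there were 1 in CTdel against con, beside 11.8% of all genes, and 3 in ICN against con, beside 15%. Ctsc, the peptidase that activates the granule proteases, had 34.3 and 27 FPKM in CTdel, 35.4 and 23.3 in ICN and 43.4 and 34.6 in con. Srgn, the proteoglycan core on which granule proteases are stored, had 329 and 223 in CTdel, 372 and 404 in ICN and 243 and 164 in con (change in ICN against con 0.95, limma adjusted p = 0.221). Slpi, an inhibitor of elastase and cathepsin G, had 14 and 4.74 in CTdel, 22.4 and 11.4 in ICN and 7.06 and 2.38 in con (change in ICN against con 1.71, limma adjusted p = 0.108; in CTdel against con 0.83, limma adjusted p = 0.189). Slpi did pass in ICN against con with only those groups fitted (limma adjusted p = 0.0338), a fit that leaving out 1 CTdel library repeats. Without ICN replicate 1 or 2 the change of Slpi in ICN against con was 1.91 and 1.51. Serpinb1a, another inhibitor of these proteases, had 12.2 and 16 in CTdel, 3.28 and 5.95 in ICN and 1.95 and 16.4 in con, so its CTdel and con values overlapped (change in CTdel against con 1.06, limma adjusted p = 0.550). That change was 0.051 without con replicate 1 (limma adjusted p = 0.958) and 2.08 without con replicate 2 (limma adjusted p = 0.0446), so it rests on which con library is used. Both inhibitors and the storage proteoglycan were thus measured well above Mpo, Elane and Ctsg.

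A list of 12 genes joined proteins of the later, specific and gelatinase granules with other neutrophil proteins such as S100a8 and S100a9, which are mainly cytosolic. Of these 12 genes 6 were tested, and 0 were called in the 4 comparisons. At an unadjusted p under 0.05 there were 5 in CTdel against con, beside 11.8% of all genes. S100a8 and S100a9 were among those 5, so the count is not one of granule proteins alone. In ICN against con there was 1, beside 15%. Mmp9, the gelatinase, was the single positive change in CTdel, with 4.29 and 5.7 FPKM in CTdel, 1.02 and 0.78 in ICN and 0.98 and 0.75 in con (change 1.68, limma adjusted p = 0.0501). Both CTdel values lay above the other 4 libraries. The other 5 had negative changes, among them Mmp8, a collagenase, with 0.58 and 1.72 FPKM in CTdel, 1.03 and 3 in ICN and 2.25 and 7.11 in con (change in CTdel against con -1.31, limma adjusted p = 0.0940). Mmp9 and Mmp8 passed in CTdel against con with only those groups fitted (limma adjusted p = 0.00340 for Mmp9 and 0.0144 for Mmp8). Leaving out 1 ICN library repeats that fit of CTdel against con. Mmp9 also passed there with no intensity trend (0.0391). S100a9, an abundant neutrophil protein, had 3.84 and 11.4 in CTdel, 11.5 and 17.7 in ICN and 7.84 and 46.4 in con, highest in con replicate 2. The median change of the list, S100a8 and S100a9 included, was -1.29 in CTdel against con, beside -0.06 over all genes. The 5 falls were seen in each replicate but differed in size. Ngp (-0.18 and -2.35 in replicates 1 and 2), Mmp8, S100a8 and S100a9 fell more in replicate 2, and all were highest in con replicate 2. Lcn2 fell more in replicate 1 (-1.17 and -0.67).

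Of 7 tested transcription factors that act on these genes 1 was called in CTdel against con, beside 1.41% of all genes. At an unadjusted p under 0.05 there were 3 in CTdel against con, beside 11.8% of all genes, and 3 in ICN against con, beside 15%. Spi1, which encodes PU.1, had 281 and 463 FPKM in CTdel, 155 and 139 in ICN and 39.1 and 47.7 in con, and rose in CTdel against con by 3.03 (standard error 0.26, limma adjusted p = 0.0170), though with no filter the adjusted p was 0.126. With both forms against con it rose by 2.39 (limma adjusted p = 0.0272), a call lost with no filter (0.161) and without con replicate 2 (0.0540). Its change in ICN against con was 1.74 (limma adjusted p = 0.120), which passed with only those groups fitted (0.0375). Leaving out 1 CTdel library repeats that fit, and without ICN replicate 1 or 2 the change was 1.41 and 2.07. In CTdel against ICN the change of Spi1 was 1.29 (limma adjusted p = 0.386). Cebpe, needed for late granules, had 32.5 and 43.8 in CTdel, 31 and 22.7 in ICN and 26.6 and 19.1 in con (change in CTdel 0.72, limma adjusted p = 0.404). Myb, which drives early myeloid genes such as Mpo and Elane, had 32.7 and 27.6 in CTdel, 50 and 26.4 in ICN and 81.8 and 53.1 in con, with no overlap between either form and con (change in CTdel -1.11, limma adjusted p = 0.118). Of all genes tested, 23.5% lay below con with no overlap in CTdel and 19.6% in ICN. Runx1 lay above con with no overlap in both forms, as 18.3% and 22.7% of all genes did in CTdel and ICN. It had 16.3 and 24 FPKM in CTdel, 20.2 and 31.7 in ICN and 13.1 and 12.7 in con (change in ICN against con 0.92, limma adjusted p = 0.222). Cebpb had 30.6 and 50.2 in CTdel, 27.55 and 74.5 in ICN and 25.1 and 40.5 in con, with overlap. Cebpa and Gfi1, factors of the granulocyte line, stayed at or below 0.02 FPKM wherever listed, and Irf8 of the monocyte line at or below 0.62. The 7 had a median change of 0.29 in CTdel against con and 0.22 in ICN against con.

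**Figure D4:**
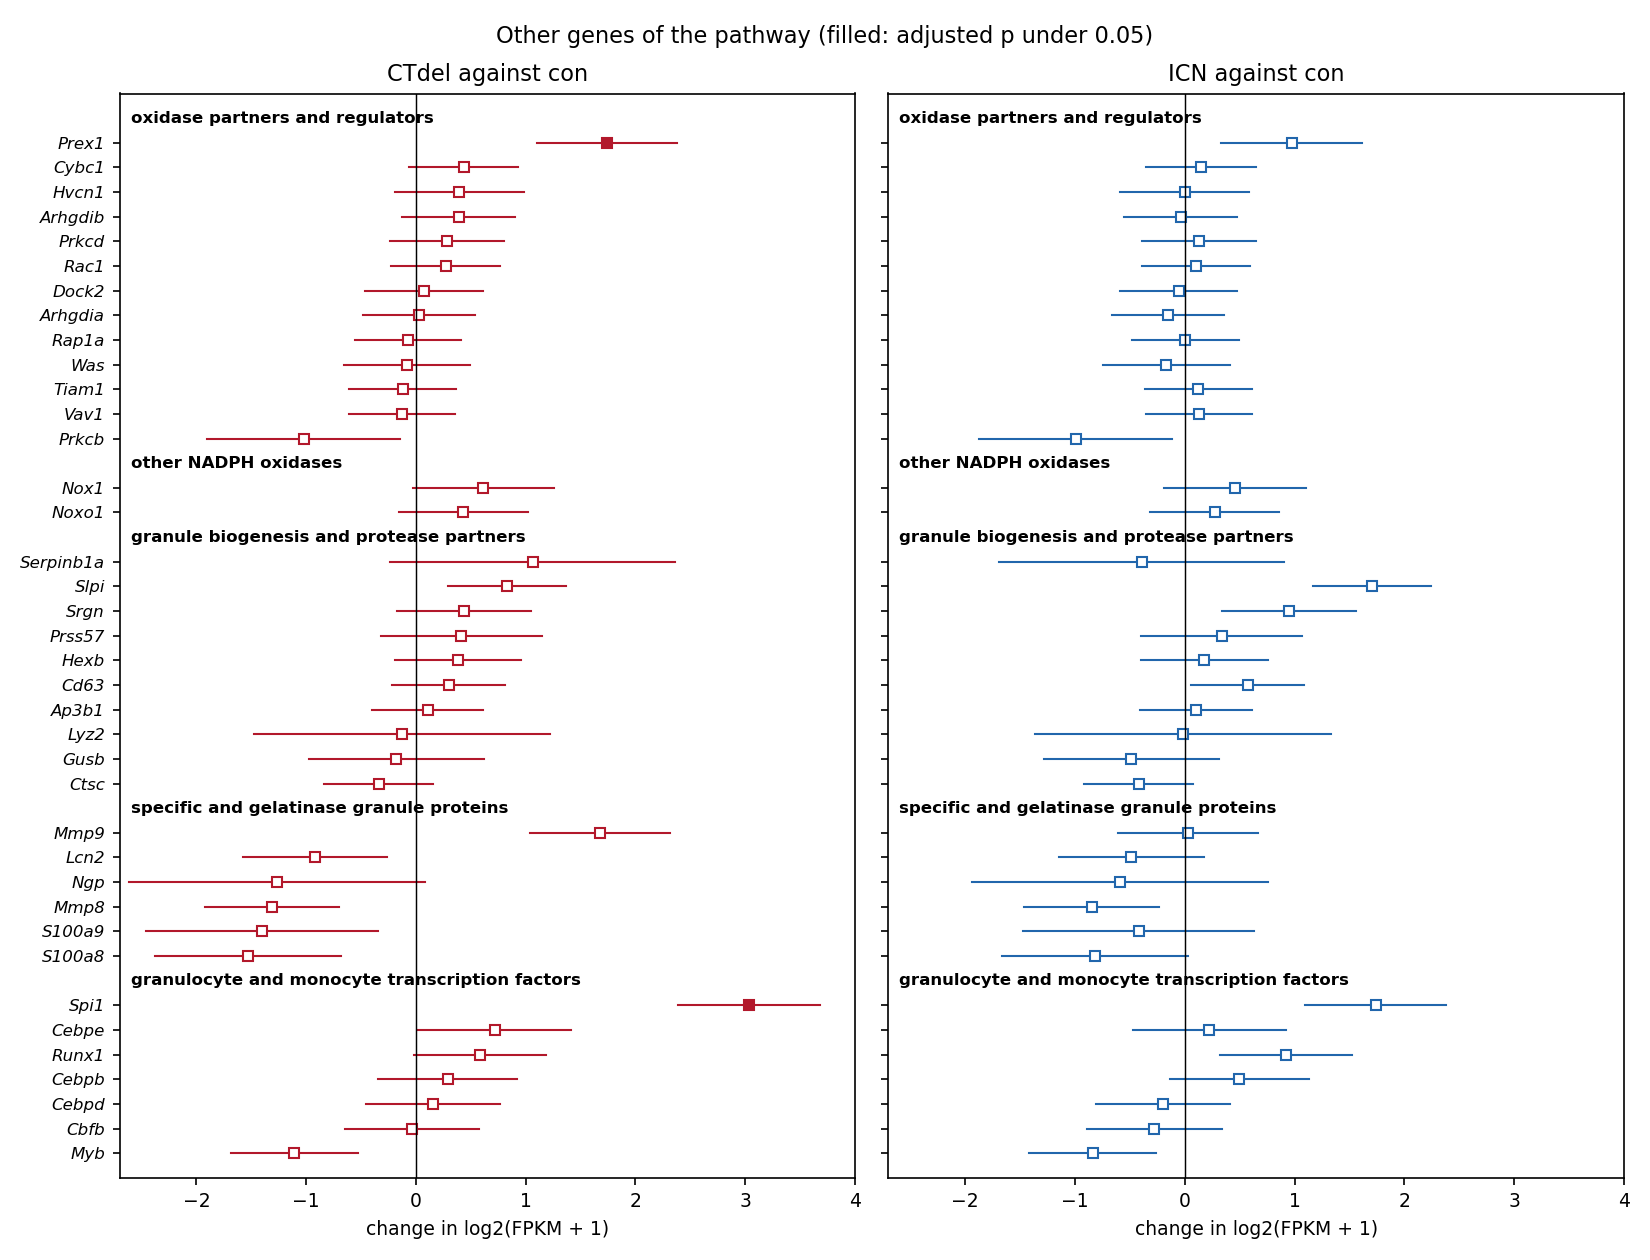
Change in log2(FPKM + 1) of the tested genes of the 5 other lists, in CTdel against con (left, red) and ICN against con (right, blue); squares are limma's estimates, filled where the adjusted p was under 0.05, and bars 95% intervals. The filled squares are Prex1 and Spi1 in CTdel, and ICN has 0.

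Within the tables, the 4 tested oxidase genes had higher correlations with one another over the 6 libraries than with Prtn3. With each table centred on its own mean, Pearson's r between pairs of the 4 ran from 0.80 (Cyba and Ncf1) to 0.97 (Ncf1 and Ncf4), and between Prtn3 and the 4 from -0.10 to 0.43. The points share groups, tables and libraries, so these are descriptions over 6 libraries. The 5 tested genes most like Cybb over the 6 libraries were M6pr, Cotl1, Ccl3, Angptl2 and Arpc3, with r from 0.9897 to 0.9958. All 5 were highest in CTdel replicate 1, as Cybb was, for example Ccl3, a chemokine, with 128 and 5.04 FPKM in CTdel, 25.0 and 1.05 in ICN and 0.95 and 0.57 in con. The 5 most like Prtn3 were Syce2, St6galnac6, Agpat2, Rrm2 and Pole2, with r from 0.9945 to 0.9972. All 5 were highest in con replicate 2, for example Rrm2, a subunit of ribonucleotide reductase, with 78.9 and 89.5 in CTdel, 97.2 and 46.3 in ICN and 69.1 and 127 in con.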

How the data were processed

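RNA of the 6 BaF3 libraries was extracted with TRIzol, and libraries were made with an MGIEasy mRNA kit, as the labels' protocols state. HISAT2, Bowtie2 and RSEM are named in the submitters' processing notes, which also list the builds mm10 and hg19 without roles. The authors deposited gene-level FPKM in a separate table per replicate number (17877 and 17868 genes, 16799 shared). Depth is unknown, so no counting interval was computed. Coordinates and promoters are RefSeq's for GRCm38.p6, and transcript lengths are GENCODE's M21.

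Changes in log2(FPKM + 1) were tested 2-sided with limma 3.58.1 (R 4.3.3), using an intensity trend, all 6 libraries and a term for the table (2 residual degrees of freedom). Benjamini-Hochberg adjustment ran over the 11050 shared genes with at least 1 FPKM in at least 2 libraries. The fit was tested on simulated data. Members, lists, motifs and tests were chosen with earlier results of these data known. All members are named; of the other lists, called genes are named, or, with 0 called, the 2 of smallest p in CTdel against con. Rac1, Cybc1, Prkcb, Ctsc, Srgn, S100a8, S100a9, Ngp, Lcn2, Cebpb, Cebpe, Myb, Runx1, Cebpa, Gfi1, Irf8, Csf1r and Fcgr1 were named after seeing their values. The 5 most alike genes were those of highest Pearson r to Cybb and to the first tested granule gene, Prtn3. Other settings varied the block, pseudocount, low-value filter, scaling, trend, groups fitted and libraries. A result that falls under an item withheld for evaluation is not reported here.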

Additional observations from a re-analysis of the deposited data

How the results depend on the processing

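The number of members called stayed at 0 in the 4 comparisons under the settings tried, with these exceptions. In CTdel against con it was 3 with only the groups compared fitted, and 0 to 2 with a library left out. In ICN against con, CTdel against ICN and both forms against con it was 0 to 1 with a library left out (Prtn3 without ICN replicate 1 in all 3, and Cyba with both forms without ICN replicate 2, adjusted p = 0.0413). The cause was not tested. Among all genes, with no filter on low genes 0 were called in each of the 4 comparisons (1592, 2328, 1386 and 2098 at an unadjusted p under 0.05 in CTdel against con, ICN against con, CTdel against ICN and both forms against con). With only the groups compared fitted, 730 were called in CTdel against con and 162 in ICN against con, where the full fit called 156 and 4. With a pseudocount of 0.1, CTdel against ICN had 0 (744 at an unadjusted p under 0.05) where the full fit had 2. With a library left out the number ran from 109 (without CTdel replicate 2) to 731 (without ICN replicate 2; 729 without ICN replicate 1) in CTdel against con, and from 11 (without con replicate 2) to 1470 (without ICN replicate 1) in ICN against con, where leaving out con replicate 1 gave 39, ICN replicate 2 147 and CTdel replicate 1 or 2 161 or 160. It ran from 2 to 891 (without ICN replicate 1) in CTdel against ICN, with 7 without CTdel replicate 1 and 9 without ICN replicate 2. With both forms against con it ran from 48 (without con replicate 2) to 1240 (without ICN replicate 1), with 189 and 249 without CTdel replicate 1 or 2 and 577 without ICN replicate 2. A group left with 1 library was taken to have the spread of the others. Where the library left out was of the group not compared, the fit was in effect that of the compared groups alone. Such settings are not separate checks.

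Directions that turned were all of changes that had not passed. With quantile normalization the change in ICN against con was -0.031 for Noxo1 and -0.31 for Mmp9. With a library left out, Prtn3 ran from -1.11 to 0.72 in CTdel against con, from -1.79 to 0.63 in ICN against con, from -0.83 to 1.59 in CTdel against ICN and from -1.30 to 0.52 with both forms against con. In ICN against con Rac2 ran from -0.12 to 0.23, Mmp9 from -0.11 to 0.16 and Serpinb1a from -1.41 to 0.62, and Serpinb1a from -0.68 to 1.35 with both forms against con. The replicate block is the table term of the fit, since each replicate number came in a table of its own. Deviations of same-numbered libraries correlated at 0.24 (CTdel and ICN), 0.33 (CTdel and con) and -0.10 (ICN and con) over 11050 genes. Without the replicate block 130 genes were called in CTdel against con, 3 in ICN against con, 2 in CTdel against ICN and 132 with both forms against con, with 0 members in each, while Mmp9 passed in CTdel against con (adjusted p = 0.0350) and Prex1 with both forms against con (0.0492).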
